A study of Mus musculus with 4 samples.

Results

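The mitochondrial ribosomal protein genes were taken as the protein-coding genes of the count files whose symbol starts with Mrpl or Mrps followed by a digit. There were 77 of them among 43629 genes, 48 with an Mrpl and 29 with an Mrps symbol, and 5 processed pseudogenes with such symbols were left out. RNA of pancreatic islets from C57BL/6 mice was sequenced in 4 libraries, 1 per group. The control islets carried the genotype labelled control, and the second library the genotype Rip2;IMP2, which the series title describes as a knockout of IMP2 in islets. The Rip2 promoter is the rat insulin 2 promoter, active mainly in beta cells, so other islet cell types would keep the gene. For the third library, wild-type islets went through RNA immunoprecipitation (RIP) with IMP2 as the target. The fourth was labelled IgG, the antibody control. No age, sex or number of pooled animals was given in the labels. IMP2 is an RNA-binding protein encoded by Igf2bp2.

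Mitochondria translate the few proteins of their own genome, all of them subunits of oxidative phosphorylation (OXPHOS) complexes, on ribosomes whose RNA is mitochondrial and whose proteins are all encoded in the nucleus. The Mrps genes encode proteins of the small subunit, which decodes the mRNA, and the Mrpl genes those of the large subunit, which forms the peptide bond. Beta cells depend on this system because ATP made by OXPHOS couples glucose to insulin release. Some of these proteins descend from the bacterial ribosome, and others exist in mitochondria only. The names do not follow structure in every case: Mrps30 and Mrps18a sit in the large subunit, and Mrps36 is now regarded as a component of the 2-oxoglutarate dehydrogenase complex.

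Gene counts came to 26350813 in control islets, 24275628 in the library labelled knockout, 6025594 in RIP and 13195732 in IgG. Igf2bp2 held 255 counts in control islets and 222 in the library labelled knockout, a ratio of 0.978 (0.813 to 1.17), so the targeted gene was not lower there beyond counting error. The deleted exons are not given in the labels, so counts over the whole gene cannot check the label, and the genotype is named below only as labelled. The 15 beta cell markers summed to 310166, 335765 and 236642 CPM (counts scaled so that each library's gene counts have the same sum) in the control, labelled knockout and RIP libraries. They summed to 975 CPM in the IgG library, where Glp1r was at 0. The 14 brown adipocyte markers summed to 49.6, 55.4, 1495 and 22499 CPM in the order control, labelled knockout, RIP and IgG, and 10 general adipocyte markers to 297, 244, 2117 and 37618 CPM. The IgG library thus held little RNA of the labelled tissue. In such bulk RNA, fewer cells of a type and less RNA per cell cannot be told apart.

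With 1 library per group, no difference has a replicate check and no p-value is given. Each ratio compares 2 libraries after TMM scaling (trimmed mean of M values), and the range after it is an exact 95% Clopper-Pearson interval that covers counting error only. A gene was measured in a comparison at a mean of at least 1 CPM. It was called higher or lower where the interval excluded 1 and the ratio reached 1.5-fold for the labelled knockout or 2-fold for the other comparisons.

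The 77 genes together took 0.192% of gene counts in control islets (1916 CPM), 0.189% in the library labelled knockout (1890 CPM), 0.187% in the RIP library (1867 CPM) and 0.986% under IgG (9863 CPM). The median gene stood at 24.7, 22.9, 23.4 and 93 CPM in the same order. The first 3 libraries therefore gave these genes nearly the same share of their gene counts, and the IgG library stood apart. The Mrps genes contributed 33.2%, 34.2%, 28.2% and 35.1% of the summed counts. Set against the summed counts of 75 nuclear genes for OXPHOS subunits, the sum was 30.7% in control islets, 32.0% in the library labelled knockout, 16.5% in RIP and 8.25% in IgG. Against the summed counts of 80 cytosolic ribosomal protein genes it was 17.1%, 23.4%, 25.8% and 39.4%.

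**Figure D1:**
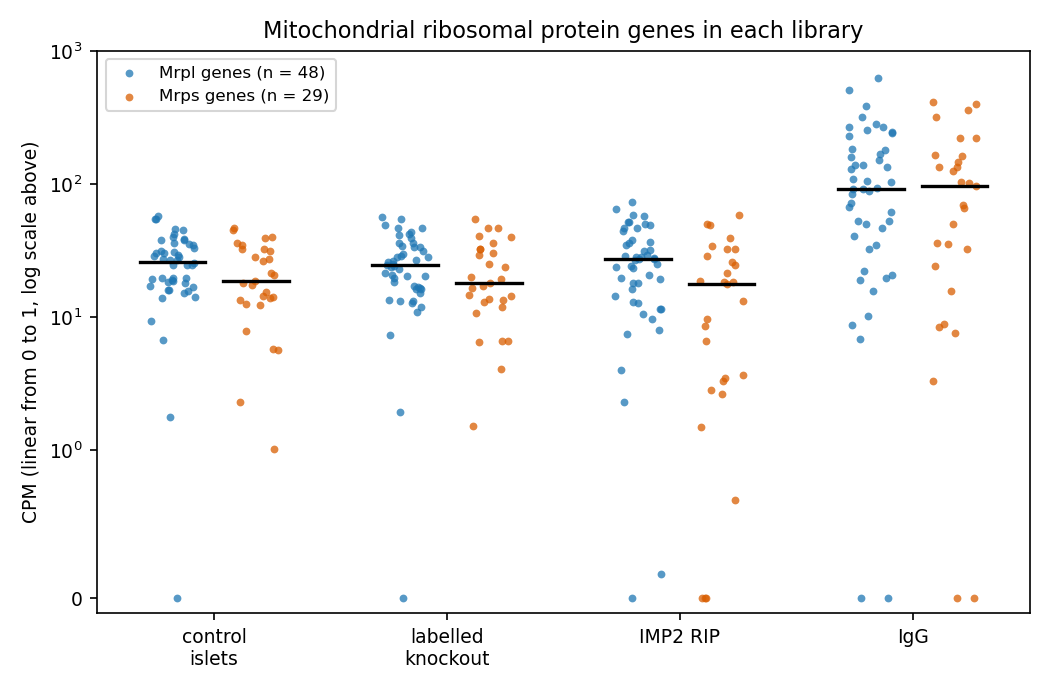
Level of each of the 77 genes in the 4 libraries, in CPM (linear from 0 to 1, logarithmic above), with Mrpl genes in blue and Mrps genes in orange. Points are genes and bars are medians over genes. The IgG library lies above the other libraries, with an overall median of 93 CPM against 22.9 to 24.7 CPM, and 4 genes lie at 0 in RIP and 4 in IgG.

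Within control islets, levels were compared between genes per kilobase of annotated exon. The median was 9.78 CPM per kilobase. The highest level was that of Mrpl54, a large subunit protein found in mitochondria only, at 45.7 CPM per kilobase (37.7 CPM in control, 42.3 in the library labelled knockout, 46.6 in RIP and 253 in IgG). Mrpl28, homologous to a bacterial large subunit protein, followed at 42.0 CPM per kilobase (57.9, 54.4, 50.1 and 619 CPM in the same order). It was the most abundant of the 77 genes in the IgG library, per gene and per kilobase. Mrps21 stood at 38.4 CPM per kilobase (28.4, 30.5, 24.6 and 134 CPM) and Mrps12, the homolog of the bacterial decoding-site protein S12, at 37.7 (39.2, 54.7, 58.7 and 320 CPM). Mrpl52 came next at 31.7 CPM per kilobase (35.2, 35.9, 28.2 and 139 CPM). This order depended on the length used. Per kilobase of the longest transcript, Mrpl52 was highest at 76.0 CPM, ahead of Mrpl54 (62.4), Mrps21 (58.2), Mrpl28 (54.2) and Mrps12 (44.4). With 1 library there is no spread over samples by which neighbours in this order could be told apart.

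At the low end, Mrpl53 had 0 counts in all 4 libraries. Mrpl23, the homolog of a bacterial protein at the exit of the peptide tunnel, had 47, 47, 1 and 0 counts in control, labelled knockout, RIP and IgG, or 0.365 CPM per kilobase in control islets. Mrps36 had 27, 37, 17 and 100 counts (0.804 CPM per kilobase in control islets), and Mrps34, a small subunit protein without a bacterial counterpart, had 61, 99, 0 and 0 counts (1.12 CPM per kilobase). Mrps10 had 357, 413, 4 and 475 counts (1.68 CPM per kilobase). Mrps10 was low per kilobase but not in counts, since its annotated exons are long (8079 bases), whereas the other 4 were low on both scales. Its longest transcript has 1113 bases, and by that length Mrps10 stood at 12.2 CPM per kilobase in control islets. Its place at the low end thus depended on the length used. The 3 paralogs of bacterial S18 also differed: in control islets Mrps18a stood at 9.78 CPM per kilobase (951, 963, 294 and 4760 counts), Mrps18c at 13.2 (373, 325, 80 and 912 counts) and Mrps18b at 2.78 (153, 160, 0 and 0 counts).

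The order of the 77 genes was alike in control islets and the library labelled knockout, with a Spearman rho of 0.97 over log2(CPM + 1). It was less alike between control islets and the RIP (0.78), the RIP and the IgG library (0.74), and control islets and the IgG library (0.63). These values describe 77 genes in 4 libraries that share gene lengths and base composition.

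The labelled knockout was compared with control islets to see whether the genes of mitochondrial translation differ in level between these genotypes. Of 76 measured genes, 1 was called higher and 0 lower, against 21.5% of all 15735 measured genes called in either direction (6.11% higher, 15.4% lower). The median log2 ratio was 0.05, with all 76 between -0.41 and 0.86, and the standard deviation over genes was 0.22 against 0.75 over all measured genes. Among other nuclear genes of mitochondria it was 0.18 over OXPHOS subunits, 0.22 over mitochondrial transcription and mRNA handling and 0.24 over mitochondrial translation factors. It was 0.26 over genes for charging mitochondrial tRNAs and 0.35 over ribosome assembly and rRNA modification. Lists outside mitochondria ran from 0.23 over beta cell markers, through 0.30 over cytosolic ribosomal proteins, to 0.57 over brown adipocyte markers. A narrow spread was thus not limited to genes of mitochondria. The interval excluded 1 for 34.2% of these genes and for 60.4% of all measured genes, at median levels of 23.5 and 18.6 CPM. Of the 76, 42 had a ratio above 1 and 34 a ratio below 1.

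Mrps34 (ENSMUSG00000038880) was the gene called higher. It held 61 counts in control islets and 99 in the library labelled knockout, a ratio of 1.82 (1.31 to 2.55). This rests on few reads, and the whole 3′ end of Mrps34 lies within other genes, as described further on. Mrps12 came next among well-covered genes, with 1032 counts in control islets and 1328 in the library labelled knockout, a ratio of 1.44 (1.33 to 1.57) that stayed under the 1.5-fold limit. With DESeq2 size factors in place of TMM its log2 ratio was 0.59 and it was called higher too. Mrps36 had a ratio of 1.54 with an interval of 0.912 to 2.63, so its 27 and 37 counts could not show a difference at this depth. Mrps10 stood at 1.30 (1.12 to 1.5).

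The lowest ratios were those of Mrps9, a homolog of bacterial S9, and Mrpl16, a homolog of bacterial L16. Mrps9 held 862 counts in control islets and 576 in the library labelled knockout, a ratio of 0.750 (0.674 to 0.835). Mrpl16 held 420 and 288 counts, a ratio of 0.770 (0.660 to 0.897). Neither reached 1.5-fold. Genes with a function besides the ribosome lay between these ends. Mrpl12, the ribosome's stalk protein, which has also been described to bind the mitochondrial RNA polymerase, had 442 and 324 counts and a ratio of 0.823 (0.711 to 0.952). Mrpl45, which holds the ribosome at the inner membrane, had 709 and 517 counts and 0.819 (0.730 to 0.918). Mrpl58, a peptidyl-tRNA hydrolase built into the large subunit that can release stalled chains, had 1055 and 1010 counts and 1.07 (0.985 to 1.17). Mrps30, first described as a programmed cell death protein, had 380 and 329 counts and 0.972 (0.836 to 1.13).

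**Figure D2:**
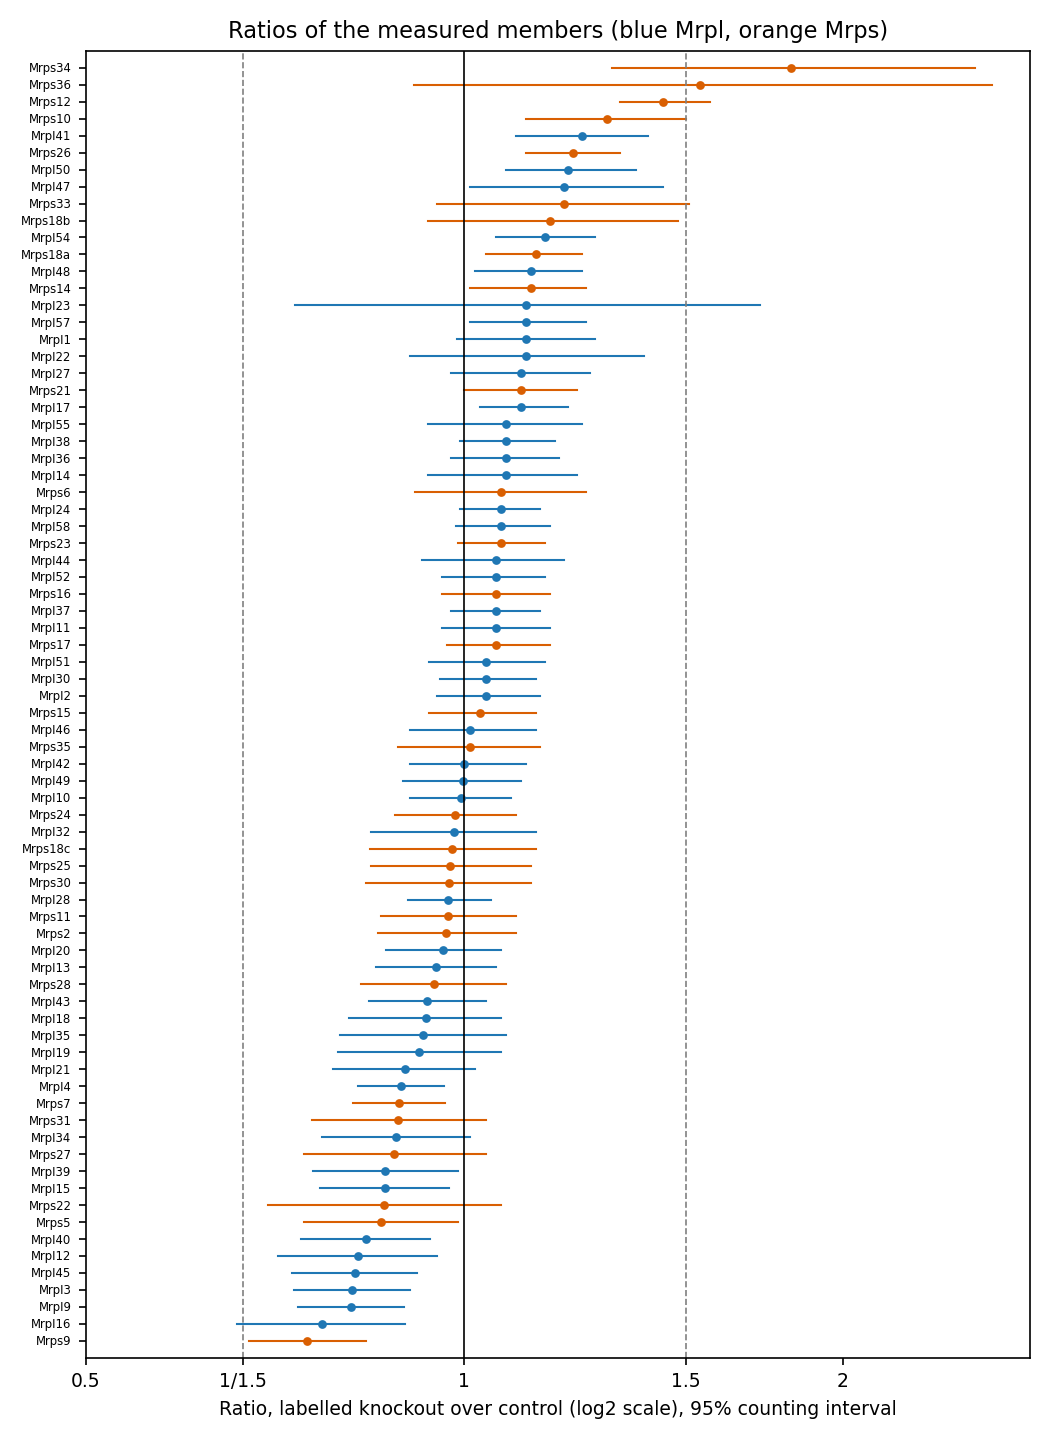
Ratio of the library labelled knockout over control islets for the 76 measured genes on a log2 axis, with 95% counting intervals (blue Mrpl, orange Mrps) and dashed lines at 1.5-fold. The points run from 0.750 for Mrps9 to 1.82 for Mrps34. Mrps34 is the gene whose interval excludes 1 and whose point lies beyond the 1.5-fold line, which the interval itself crosses.

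The groups by origin and subunit had medians near 0 on the log2 scale. The median log2 ratio was 0.05 over 17 small subunit proteins with a bacterial homolog and 0.01 over 9 without. It was -0.02 over 30 large subunit proteins with a bacterial homolog and 0.08 over the 19 measured ones without. Over the 75 nuclear OXPHOS genes, whose protein partners are made on these ribosomes, the median was 0.03 with 1 gene called higher and 0 lower. The cytosolic ribosomal protein genes had a median of -0.34, with 0 of 79 called higher and 8 lower. In the same 2 libraries all 12 lymphocyte markers were called lower (1311 CPM in control islets, 232 in the library labelled knockout, summed) and all 16 markers of dividing cells (649 and 235 CPM). None of those markers was at 0 in either library. Called higher were 4 of 7 measured alpha cell markers (15308 and 26177 CPM), 3 of 15 beta cell markers and 3 of 13 measured acinar markers. Their part in these ratios was not tested.

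The RIP was compared with the IgG library, the control of the immunoprecipitation. Of 73 measured genes, 1 was called higher and 68 lower in the RIP, where 30.4% of all 14822 measured genes were called lower, 43.2% higher and 73.7% in either direction. The median log2 ratio was -3.06, an 8.33-fold lower level in the RIP, while the median of all measured genes was 0.45. Under totals that leave out hormone, acinar and Gm42418 counts the calls over all genes split into 62.1% higher and 16.1% lower, and the median of these genes moved to -1.61 while that of all measured genes moved to 1.89. Of the 73 genes, 46 were then lower past the limits and 3 higher. The distance between both medians was -3.50 under each of the 4 scalings. This was fixed in advance, since a scaling shifts the log2 ratios of all genes by the same amount. The summed level was 1867 CPM in the RIP, close to the 1916 CPM of control islets, and 9863 CPM in the IgG library.

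Mrps31, whose product is known as an islet autoantigen in type 1 diabetes, had 0 counts in the RIP and 111 in IgG. Against the limit of 3 counts it was at least 27.2-fold lower in the RIP, and the counting interval, which also covers the error of the IgG count, ended at 21.7-fold. With counts divided by an estimated number of reads per molecule it was not called. Mrps6, a homolog of bacterial S6, held 9 counts in the RIP and 1925 in IgG, against 327 and 312 in control and labelled knockout islets, and was 157-fold lower in the RIP than in IgG (82.6 to 344). Mrps10, a homolog of bacterial S10, held 4 and 475 counts and was 87.2-fold lower (33.8 to 321). These 3 genes differed from most of the others in that their RIP level was also far under the islet level. The 9 and 4 counts of Mrps6 and Mrps10 lie under the estimated 18 reads per molecule in the RIP. Per molecule, neither was called lower in the RIP than in control islets.

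For the next lowest, more of the distance lay in a high IgG level. Mrpl12 held 108 counts in the RIP and 3222 in IgG, 21.9-fold lower in the RIP (18.1 to 26.8). Mrps9 held 58 and 1668 counts, 21.1-fold lower (16.3 to 27.9), and its 9.63 CPM in the RIP lay under the 32.7 CPM of control islets. Mrpl28 held 302 and 8173 counts, 19.9-fold lower (17.7 to 22.4). In CPM, Mrpl28 was at 50.1 in the RIP and 57.9 in control islets, so its distance lay in the 619 CPM of the IgG library.

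Mrpl24, a homolog of bacterial L24, was the gene called higher. It held 1436 counts in control islets, 1369 in the library labelled knockout, 220 in RIP and 116 in IgG, and its RIP to IgG ratio was 2.58 (2.05 to 3.26). Mrpl24 overlaps Rrnad1 on the other strand, which held 856, 950, 237 and 4 counts, and whether counting used strand is not given in the sources used here. Uncalled were 4 measured genes: Mrps22 (20 counts in the RIP and 44 in IgG, ratio 0.619), Mrpl3 (229 and 459, ratio 0.679), Mrpl19 (166 and 294, ratio 0.769) and Mrpl32 (77 and 134, ratio 0.782). Mrpl3 and Mrpl19 had intervals under 1 (0.577 to 0.798 and 0.632 to 0.933) and stayed within the 2-fold limit. The side on which Mrpl19 lay depended on the scaling: its log2 ratio was -0.38 under TMM, 0.31 under gene count totals and 1.07, called higher, under totals without hormone, acinar and Gm42418 counts. Mrpl32 and Mrps22 had intervals that held 1. The remaining 4 of the 77 genes, Mrpl23, Mrpl53, Mrps18b and Mrps34, were at 0 to 1 counts in both libraries and were not measured.

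The small subunit names had a median log2 ratio of -3.18, with 26 of 27 measured genes called lower, and the large subunit names one of -2.87, with 42 of 46 called lower and 1 higher. Among the nuclear OXPHOS genes 73 of 74 were called lower, with a median of -3.79, and among the cytosolic ribosomal protein genes 55 of 75 lower and 6 higher, with a median of -1.90. The brown adipocyte markers had 12 of 14 called lower in the RIP and the general adipocyte markers 10 of 10, while all 15 beta cell markers were called higher. Of the brown adipocyte markers, Ebf2 was at 0 in the IgG library and none was at 0 in the RIP, and no general adipocyte marker was at 0 in either. The part of this tissue content in the ratios of the mitochondrial ribosomal protein genes was not tested.

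**Figure D3:**
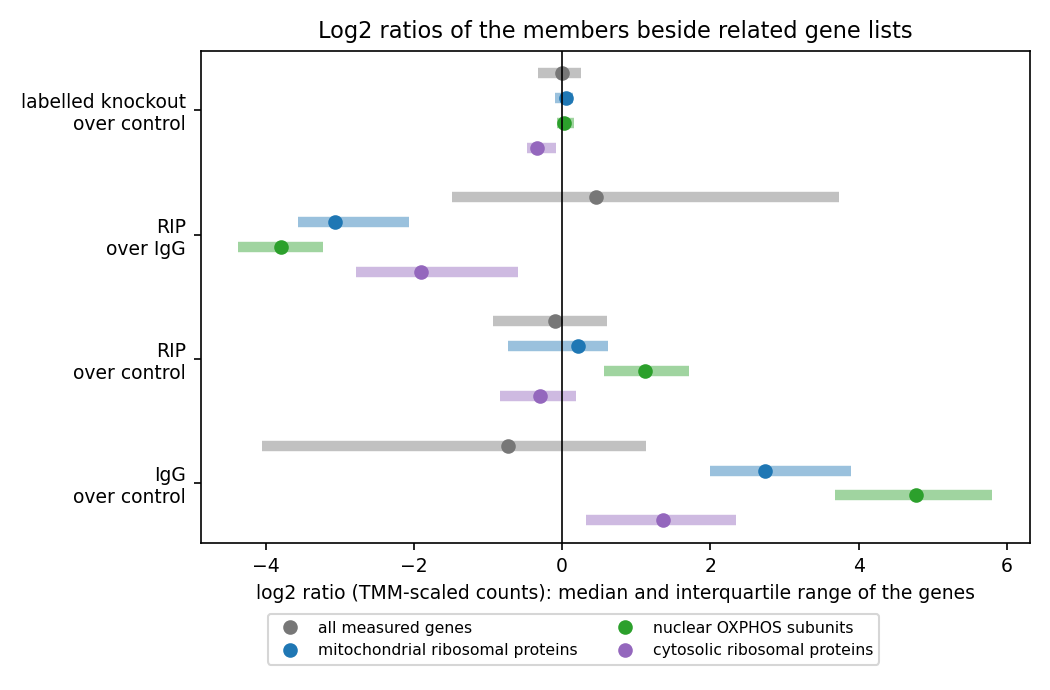
Median (point) and interquartile range (bar) of the log2 ratio over genes for all measured genes and 3 gene lists in each of the 4 comparisons. In RIP over IgG the mitochondrial ribosomal protein genes have a median of -3.06 between those of OXPHOS subunits (-3.79) and cytosolic ribosomal proteins (-1.90), and in labelled knockout over control their bar is narrow around 0.05.

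The IgG library was also set against control islets, which shows on which side the difference lay. The IgG library had 66 of 75 measured genes called higher and 3 called lower, against 26.4% of all 15352 measured genes called higher and 46.5% lower (72.9% either). The median log2 ratio was 2.74 where that of all measured genes was -0.73. Under totals without hormone, acinar and Gm42418 counts the split over all genes was 12.8% higher and 67.7% lower, 40 of these genes were higher and 6 lower by the same limits, with a median of 1.20 against -2.27. Under each of the 4 scalings their median lay 3.47 above that of all measured genes, a distance that a scaling cannot change. All 15 beta cell markers were called lower in the IgG library and all 13 measured brown adipocyte markers higher. Elovl3 and Otop1 of the latter were at 0 in control islets, where the median of that list was 1.12 CPM. A marker that reaches a mean of 1 CPM through the IgG library alone can only be called higher. Glp1r of the beta cell list was at 0 in the IgG library. The part of this tissue content in the ratios of the mitochondrial ribosomal protein genes was not tested.

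The largest ratio was that of Mrpl12, with 16.8 CPM in control islets and 244 in the IgG library, a ratio of 28.6 (25.9 to 31.7). Mrpl51, a large subunit protein found in mitochondria only, had 28.5 and 382 CPM and a ratio of 26.4 (24.4 to 28.5). Mrpl30 had 38.9 and 511 CPM and a ratio of 25.9 (24.2 to 27.7). Mrps16, a homolog of bacterial S16, had 31.6 and 415 CPM and a ratio of 25.8 (24.0 to 27.8). Mrps6 followed at 23.1 (20.6 to 26.1), Mrpl42 at 21.5 (19.9 to 23.2) and Mrpl28 at 21.0 (19.9 to 22.2). The ratios were uneven over proteins of the same particle: Mrps22 had a ratio of 0.831 (0.586 to 1.15), Mrps31 of 1.18 (0.947 to 1.46) and Mrpl32 of 1.43 (1.16 to 1.75).

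Lower in the IgG library were Mrps18b, with 153 counts in control islets and 0 in IgG (at least 13-fold lower against 3 counts, interval ending at 10.4-fold), Mrps34, with 61 and 0 counts (at least 5.18-fold, interval ending at 4.08-fold), and Mrpl24, with 54.5 and 8.79 CPM (3.15-fold lower, ratio 0.317, 0.260 to 0.384). All 3 belong to the genes whose 3′ end lies in another gene. Mrps25 belongs to them too and was called higher in the IgG library, at 20.7 (18.6 to 23.1).

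The RIP against control islets asks which of these mRNAs take a larger share of the immunoprecipitated RNA than of islet RNA. Among 75 measured genes, those called were 9 higher and 14 lower, together 30.7%, where 41.1% of all 15968 measured genes were called (17.1% higher, 24% lower). The median log2 ratio was 0.21 under TMM and -0.09 under gene count totals, so it had no fixed sign. It lay 0.31 above the median of all measured genes under each of the 4 scalings, which was again fixed in advance. Under gene count totals the split over all genes was 13.6% higher and 30.3% lower, and 2 of these genes were called higher and 20 lower. The RIP and IgG comparisons with control islets share that library, and the RIP to IgG comparison shares libraries with both.

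The 9 genes called higher were Mrps36 at 3.38 (1.73 to 6.44, 27 counts in control islets and 17 in the RIP), Mrpl51 at 2.79 (2.46 to 3.15, 28.5 and 64.6 CPM), Mrpl20 at 2.40 (2.11 to 2.72, 30.2 and 58.9 CPM) and Mrpl30 at 2.30 (2.05 to 2.57, 38.9 and 72.7 CPM), followed by Mrps25 at 2.29, Mrpl19 at 2.23, Mrpl42 at 2.21, Mrpl14 at 2.14 and Mrpl18 at 2.13. Most of them encode large subunit proteins. Mrpl30 had the highest CPM of the 77 genes in the RIP, at 72.7. Mrpl19 held 400 counts in control islets, 328 in the library labelled knockout, 166 in RIP and 294 in IgG. Mrps25 held 408, 354, 174 and 2153 counts, and Mrpl20 held 796, 682, 355 and 3698. Apart from Mrpl19 and Mrps36, the 9 genes held over 1000 counts in the IgG library too. Their IgG to control ratios were larger than their RIP to control ratios: Mrpl51 stood at 26.4 and 2.79, Mrpl20 at 18.2 and 2.40, and Mrpl19 at 2.89 and 2.23.

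Of the 14 called lower, Mrps31, Mrps18b and Mrps34 were at 0 counts in the RIP, at least 22.9-fold, 9.49-fold and 3.78-fold lower than in control islets against the limit of 3 counts, with counting intervals that ended at 18.5-fold, 7.63-fold and 2.99-fold. Mrps31 held 369 counts in control islets against 291 in the library labelled knockout, and none of its last 300 bases lies in another gene. Mrps10 was 16.6-fold lower (357 counts in control islets and 4 in the RIP), Mrps6 6.76-fold (327 and 9) and Mrpl1, a homolog of bacterial L1, 3.82-fold (493 and 24). Mrps30 was 3.22-fold lower (380 and 22 counts), Mrps27 2.95-fold, Mrps9 2.77-fold, Mrpl22 2.35-fold, Mrpl9 2.34-fold, Mrps28 2.22-fold, Mrpl43 2.08-fold and Mrpl21 2.01-fold. Small subunit names were called lower for 9 of 29 measured genes and higher for 2, with a median log2 ratio of -0.20. Large subunit names were called lower for 5 of 46 and higher for 7, with a median of 0.34. The difference between both sets was not tested. Reads in the RIP may stem from few molecules: with counts divided by an estimated 18 reads per molecule, 1 gene (Mrps31) was called lower and 7 higher, where 6.04% of all measured genes were called lower and 8.73% higher. Beside these ratios, 12 of 13 measured brown adipocyte markers and 9 of 10 general adipocyte markers passed the limits upward in the RIP, and all 12 lymphocyte markers passed them downward. Cd3d, Cd8a and Cd2 among the latter were at 0 in the RIP. Of the brown adipocyte markers, Elovl3 and Otop1 were at 0 in control islets. The part of these marker lists in the ratios was not tested.

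Other genes of mitochondrial translation were read from lists of the pathway. The 5 ribosomal subunits with other names (Dap3, Chchd1, Aurkaip1, Ptcd3 and Gadd45gip1) had 0 called in labelled knockout over control. In RIP over IgG, 3 of 5 were called lower, with Chchd1 4.39-fold, Aurkaip1 3.83-fold and Dap3 2.22-fold lower, and Ptcd3 was called higher at 2.40 (155 counts in the RIP and 88 in IgG). In IgG over control 4 of 5 were called higher, led by Chchd1 at 11.5. These followed the Mrpl and Mrps genes in direction, except Ptcd3.

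The genes that serve the ribosome were more mixed. Of 11 translation factors, 0 were called in labelled knockout over control, and 5 were called lower and 0 higher in RIP over IgG. Tufm, the elongation factor that brings aminoacyl-tRNA to the ribosome, was 24.3-fold lower in the RIP than in IgG (348, 275, 86 and 2848 counts in control, labelled knockout, RIP and IgG). Of 23 measured genes for ribosome assembly and rRNA modification, 14 were called lower and 5 higher in RIP over IgG. Mpv17l2, a ribosome assembly factor of the inner membrane, was 22.3-fold lower (430, 406, 91 and 2757 counts), and Tfb1m, the rRNA methyltransferase, had 146, 124, 56 and 0 counts. Of 24 measured genes of that list in labelled knockout over control, 2 were called higher: Trmt61b at 2.18 (65 and 126 counts) and Ybey at 1.51 (87 and 117 counts).

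Of 20 genes for charging mitochondrial tRNAs, 0 were called in labelled knockout over control, and 9 were called lower and 2 higher in RIP over IgG. Lars2, the mitochondrial leucyl-tRNA synthetase, held 406301, 463264, 251493 and 477407 counts in the 4 libraries, more than all 77 ribosomal protein genes together in each. Lars2 stood at 15419, 19084, 41737 and 36179 CPM, the highest of this list, whose median was 16.9, 20.0, 15.3 and 18.2 CPM. Whether reads counted for Lars2 stem from its mRNA was not tested. Of 12 genes for mitochondrial transcription and mRNA handling, 0 were called in labelled knockout over control, and 7 were called lower and 2 higher in RIP over IgG. Polrmt, the mitochondrial RNA polymerase, was among those called higher, with 911, 767, 104 and 19 counts. Median log2 ratios of RIP over IgG were -0.92 for translation factors, -1.31 for assembly, -0.88 for tRNA charging and -1.48 for transcription and mRNA handling, all nearer to 0 than the -3.06 of the ribosomal protein genes.

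Several zeros coincided with gene overlap. Reads that fall in more than 1 annotated gene are not assigned to either by such counting, and the share of reads set aside as ambiguous was 3.89% in control islets, 4.26% in the library labelled knockout, 10.7% in RIP and 4.29% in IgG. The last 300 bases of the longest coding transcript lay wholly in another gene for 5 of the 77: Mrpl24 (with Rrnad1), Mrpl53 (Gm42688), Mrps18b (Gm16279), Mrps25 (Nr2c2) and Mrps34 (Mapk8ip3 and Nme3). Of these 5, 3 were at 0 in the RIP and the same 3 in the IgG library, against 1 of 68 in each library among genes with no such overlap. Mrps25, with 174 and 2153 counts, and Mrpl24, with 220 and 116, were not at 0. Mrpl53 lies within Gm42688 on mm10 chromosome 6 (83109040 to 83109939, plus strand), and 100% of the 50-base words of its transcript also occur in transcripts of that gene. Mrps34 lies on chromosome 17 (24895116 to 24897502, plus strand) and Mrpl24 on chromosome 3 (87919506 to 87923672, plus strand). Without these 5 genes, 0 were called in labelled knockout over control and 0 were called higher in RIP over IgG. Both zeros were fixed in advance, since the genes called, Mrps34 and Mrpl24, are among the 5. Whether the counting caused the zeros was not tested.

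**Figure D4:**
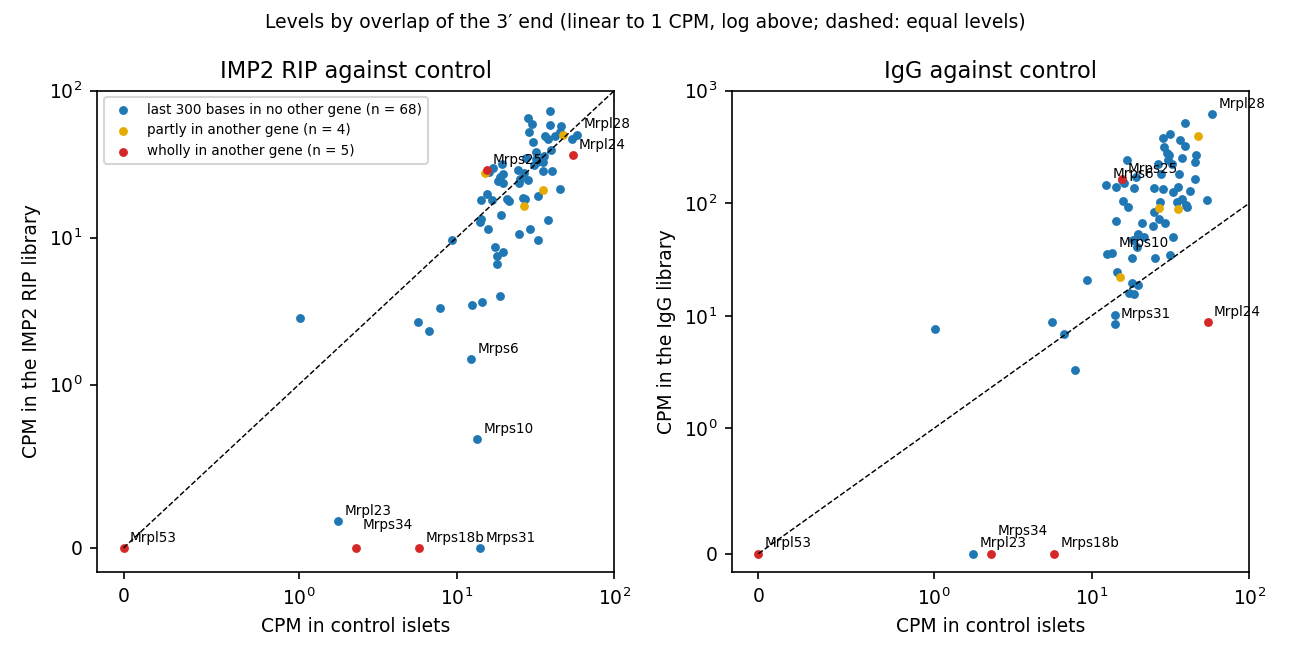
CPM of each gene in control islets (x axis) against the RIP (left) and the IgG library (right), both axes linear to 1 CPM and logarithmic above, with the dashed line at equal levels and colours for the overlap of the last 300 bases with another gene. Mrps18b, Mrps34 and Mrpl53, with a wholly overlapped 3′ end, lie at 0 in both panels. Mrps31 lies at 0 in the RIP, and Mrpl23 at 0 in the IgG library, without such overlap.

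Mrpl23 had a near copy instead. The pseudogene Mrpl23-ps1 on chromosome 2 held 541, 384, 62 and 502 counts in control, labelled knockout, RIP and IgG, against 47, 47, 1 and 0 for Mrpl23 on chromosome 7. Of the 50-base words of the Mrpl23 transcript, 66.7% occurred in Mrpl23-ps1. An alignment of the 516 coding bases with the pseudogene covered 421 bases with 421 identical (100%). The following 60 bases, coding bases 96 to 155 counted from 1 at the start codon, show part of this identity. They were read from GENCODE M21 transcripts, and no bases differ.
Mrpl23: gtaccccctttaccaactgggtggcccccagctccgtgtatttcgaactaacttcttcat
Mrpl23-ps1: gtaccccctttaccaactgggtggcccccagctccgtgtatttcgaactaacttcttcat
How reads from the identical bases were placed was not tested, so the counts of both genes are uncertain. Mrps36 shared 36.2% of its 50-base words with its pseudogenes and other genes, and Mrps10 22.6%.

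Of the 77 genes, 11 lay on chromosome 11, 8 on chromosome 17 and 7 on chromosome 6. These chromosomes hold 1639, 1056 and 1112 of 22028 protein-coding genes, and whether the 77 genes cluster was not tested. A protein-coding gene on the other strand started within 1000 bases of the start of 33 of the 77 (42.9%), against 2386 of 22028 protein-coding genes (10.8%). Some partners are mitochondrial genes too: Mrpl46 and Mrps11 on chromosome 7 start back to back, Mrpl36 starts beside Ndufs6, Mrpl47 beside Ndufb5 and Mrps12 beside Sars2. Mrpl46 held 652, 589, 64 and 1109 counts and Mrps11 held 563, 487, 106 and 664 in control, labelled knockout, RIP and IgG. Both were within counting error of 1 in labelled knockout over control, at 1.01 (0.906 to 1.14) and 0.971 (0.859 to 1.10).

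Promoters of these genes were read beside those of the OXPHOS genes. Whether promoter motifs bear on the ratios between the islet libraries was not tested. Windows of 300 bases, 250 before to 50 after the RefSeq start (GRCm38.p6), were available for 68 of the 77 genes and searched on both strands for 3 kinds of motif tied to nuclear genes of mitochondria. The ETS family motif CCGGAAG occurred in 24 windows (35.3%), against 11.9% of 17492 protein-coding promoters and 9.12% of all 27025. The short YY1 motif AAGATGGCG occurred in 8 (11.8%), against 1.94% and 1.49%. A longer form, which adds further bases at the 3′ end of the short one, occurred in 5 (7.35%), against 0.972% and 0.699%. The palindromic NRF1 motif, printed in capitals for Mrpl39 further on, occurred in 3 (4.41%), against 1.32% and 0.977%. At least 1 motif occurred in 33 windows (48.5%), against 14.5% of protein-coding promoters, and in 38.1% of 63 windows of OXPHOS genes. The windows held a median of 21 CpG pairs against 13 in protein-coding promoters, with a GC content of 58.5% against 56.3%. A match is a description of these letters and not a site shown to be bound.

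**Figure D5:**
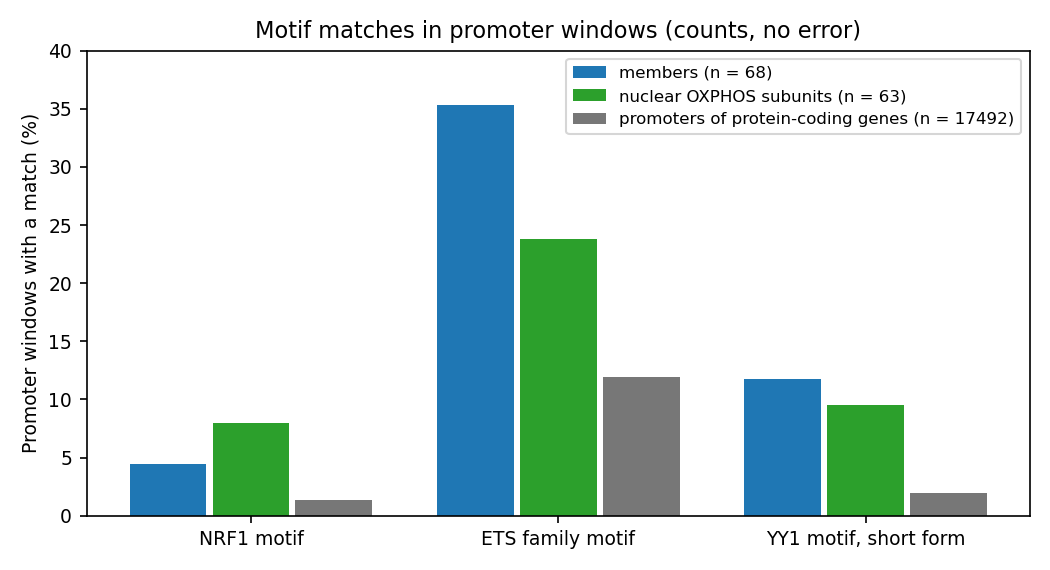
Share of 300-base promoter windows with a match to 3 motifs for the mitochondrial ribosomal protein genes, nuclear OXPHOS genes and all protein-coding genes. The ETS family motif is found in 35.3% of windows of the mitochondrial ribosomal protein genes against 11.9% of protein-coding promoters.

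The stretches below show where these motifs sit in promoters that have no divergent partner, in capitals and in the direction of the gene, each ending at the base before the RefSeq start. Mrpl39 (chr16:84735245-84735374, minus strand) carries the NRF1 motif, and Mrps18a (chr17:46110904-46111003, plus strand), Mrpl34 (chr8:71464826-71464925, plus strand) and Mrps26 (chr2:130563657-130563756, plus strand) carry the ETS family motif, Mrps26 on the opposite strand. The last line gives the 41 bases between the starts of Mrpl46 and Mrps11 (chr7:78783090-78783130, plus strand), which hold none of the motifs, although the Mrps11 window holds both YY1 forms further upstream, from positions -108 and -110. In GENCODE the models of these genes overlap at their starts.
Mrpl39: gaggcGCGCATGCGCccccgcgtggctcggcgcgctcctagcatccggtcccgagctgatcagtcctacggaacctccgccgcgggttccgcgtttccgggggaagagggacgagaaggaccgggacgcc
Mrps18a: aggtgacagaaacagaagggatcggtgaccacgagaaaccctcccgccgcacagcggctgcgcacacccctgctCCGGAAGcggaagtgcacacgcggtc
Mrpl34: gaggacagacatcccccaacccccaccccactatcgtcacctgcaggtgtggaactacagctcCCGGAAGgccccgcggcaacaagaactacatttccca
Mrps26: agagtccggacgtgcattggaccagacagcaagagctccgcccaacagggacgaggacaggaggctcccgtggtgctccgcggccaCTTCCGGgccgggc
Mrpl46 to Mrps11: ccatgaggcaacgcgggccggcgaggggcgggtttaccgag
Counted from the RefSeq start, the capitals begin at position -125 in Mrpl39, -26 in Mrps18a, -37 in Mrpl34 and -14 in Mrps26. Between the islet libraries these genes had ratios of 0.865 (0.758 to 0.988) for Mrpl39, 1.14 (1.04 to 1.24) for Mrps18a, 0.882 (0.771 to 1.01) for Mrpl34 and 1.22 (1.12 to 1.33) for Mrps26.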

How the data were processed

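For each of the 4 libraries the authors deposited a table of unnormalized counts per gene, made with STAR and HTSeq on mm10 per the submitters' processing notes; the tool versions, strand option and annotation release are not given in the sources used here. Closing entries that name no gene held 50.8%, 50.3%, 72.4% and 70.5% of the deposited counts in control, labelled knockout, RIP and IgG and stayed out of library sizes. GENCODE M21 (GRCm38) gave names, exons and overlaps for 42548 of the 43629 identifiers. Mrpl33 was not analysed here. Each pair of libraries was scaled by TMM in edgeR 4.0.16 (R 4.3.3) over genes with a mean of at least 1 CPM, and ratios, intervals and levels were computed for the whole table in Python 3.11.15 with SciPy 1.17.1 and pandas 2.3.3. Log2 ratios had 0.5 counts added, and folds against 0 were computed against 3 counts in that library. The script was tested on simulated counts. No molecular identifiers are described in the labels, and reads of 1 molecule cannot be told from reads of several, so intervals cover counting error only. Genes were named by rule: called genes (all up to 10, otherwise the 6 in each direction with the interval bound farthest from 1), the 5 highest and 5 lowest per kilobase in control islets, the Mrps18 paralogs and 6 genes with other known functions. Further genes were named after their values were seen, as uncalled, lowest or overlapping. The members, lists and tests were chosen with earlier results of these data known. Alternatives were other scalings (gene count totals, totals without dominant genes, DESeq2 1.42.0 size factors), other limits and division by reads per molecule.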

Additional observations from a re-analysis of the deposited data

How the results depend on the processing

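No paired analysis was possible because each group had 1 library and the labels carry no replicate numbers; for the same reason no library could be left out. In labelled knockout over control, the number of genes called higher was 2 with DESeq2 size factors, and 0 with a mean of at least 5 CPM, with a 2-fold limit, or without the 5 genes whose last 300 bases lie in another gene (chosen after seeing the data), while 0 were called lower under each setting run. Over all measured genes, 7.96% were called higher with DESeq2 size factors, 4.05% at 5 CPM and 1.25% at 2-fold. The share called lower ran from 8.75% to 16.6% over the settings. In RIP over IgG, the number called higher was 3 under totals without hormone, acinar and Gm42418 counts and 0 with a 3-fold limit, with counts divided by reads per molecule, or without the 5 overlapped genes. Over all measured genes, 62.1% were called higher under those totals, 36.9% at 3-fold and 15.6% per molecule. The median log2 ratio was -2.37 under gene count totals and -1.61 under totals without those counts, which left 46 called lower (16.1% of all measured genes). In RIP over control, the number called higher was 2 (13.6% of all measured genes) and the median -0.09 under gene count totals. With a 3-fold limit 1 was called higher and 7 lower (11.5% and 17.1% of all measured genes). Per molecule 1 was called lower (6.04% of all measured genes). In IgG over control, the median was 1.76 under gene count totals, 1.20 under totals without those counts and 2.98 with DESeq2 size factors. Totals without those counts left 40 called higher and 6 lower (12.8% and 67.7% of all measured genes), and Mrpl19 reversed to a log2 ratio of -0.01. The number called lower was 1 with a mean of at least 5 CPM, 1 per molecule and 0 without the 5 overlapped genes. Over all measured genes, 41.0% were called lower at 5 CPM and 24.7% per molecule. Where leaving out the 5 overlapped genes gave 0, this was fixed in advance, since the genes called were among them. The median level was 13.9 CPM per kilobase with the longest transcript as length. A scaling shifts the log2 ratios of all genes alike, so the distance to the median of all genes could not change with it. Other causes were not tested. Reads per molecule were estimated at 18 (RIP) and 21 (IgG). Each is the median count of genes at 0 in both islet libraries with more than 5 counts in that library (230 and 121 genes). The limit of 5 raises this median, and genes of other tissue can be among them: Elovl3 and Otop1 were at 0 in both islet libraries. The estimate is therefore rough, and counts under about that size in those libraries may, but need not, stand for 1 molecule.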
